A study of Mus musculus with 2 samples.

Results

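Cells with transcripts of both Ccr7 and Fscn1, a pair that marks mature, migrating dendritic cells, were examined in mouse tumours. They were chosen as cells with at least 200 detected genes, at most 10% of UMIs (unique molecular identifiers, 1 per captured RNA) from mitochondrial genes, fewer than 5 UMIs of the mCherry construct, at least 1 UMI of Ccr7 and 1 of Fscn1, and no UMI of Cd3d, Cd3e or Cd3g. The choice gave 61 of 12864 cells within the gene and mitochondrial limits, of 13837 in the files. Of these, 34 of 5774 came from the adult library and 27 of 7090 from the young library. They were set against 4253 adult and 5379 young comparison cells, which had at least 1 UMI of Csf1r, the receptor of macrophage colony-stimulating factor, fewer than 2 mCherry UMIs and were not among the chosen cells.

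The adult group was mice aged 24 weeks and the young group mice aged 4 weeks, and the tumours of both are labelled d7. Tumours were pooled, cells were sorted as mCherry+ by flow cytometry, and each age was made into 1 library with the 10x Genomics 3' v2 kit. The labels give no mouse strain, no tumour line, no treatment and no number of animals, and do not say which cells carried the mCherry gene. The study's title asks how presentation of tumour antigen to CD8 T cells differs in young hosts. With 1 library per age there was no replicate and no test was possible. Intervals reflect counting error alone. Differences of age, pool, sort, library and run cannot be told apart.

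Dendritic cells take up antigen in tissues and, on maturation, change from uptake to presentation. CCR7, the chemokine receptor they then display, guides them through lymph vessels to draining lymph nodes, and fascin, the product of Fscn1, bundles actin in their long processes. Mature dendritic cells of tumours are known for carrying costimulatory ligands and inhibitory molecules such as PD-L1 (Cd274) at once.

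The Ccr7 Fscn1 cells held 435227 UMIs in the adult and 322724 in the young library, of 70988070 and 84862471 UMIs in those libraries. Their median depth was 13504 UMIs in adult and 12444 in young cells, against 10069 and 10322 in adult and young comparison cells. Doublets were not called. The libraries shared 111 cell barcodes, none of them of a Ccr7 Fscn1 cell. The construct had at most 1 UMI in any of these cells, with 1 in 8 adult and 6 young cells.

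The cells made up 0.589% of adult cells (95% exact binomial interval 0.408 to 0.822%) and 0.381% of young cells (0.251 to 0.554%). The share was 1.55 times as high in the adult as in the young library, with an interval of 0.906 to 2.66, so equal shares lay within counting error.

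Levels are given as UMIs summed over the cells of a group per 1000000 summed UMIs (CPM), and ratios as log2 with 5 CPM added to both levels. By their choice, the cells held Ccr7 at 2282 CPM in the adult and 2420 CPM in the young library and Fscn1 at 1732 and 1500 CPM. Around the limit of choice, 5 adult and 5 young cells had a single UMI of Ccr7 or of Fscn1. Just outside it, 123 adult and 126 young cells had Ccr7 without Fscn1, with Ccl22 at 170 and 358 CPM, and 63 adult and 63 young cells had Fscn1 without Ccr7, with Ccl22 at 0 and 3.41 CPM.

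The label was checked on markers that the choice did not use directly. Ccl22 and Cd274 were given with the choice as markers of these cells, so they are not an independent check. Ccl22, the CCR4 ligand made by mature dendritic cells, had a UMI in 32 of 34 adult and 24 of 27 young cells. Cacnb3, a calcium channel subunit, had one in 32 of 34 adult and 24 of 27 young cells, against 0.635% of adult and 0.632% of young comparison cells. Flt3, the growth factor receptor of the dendritic lineage, had a UMI in 19 of 34 adult and 14 of 27 young cells, and stood at 101 and 86.8 CPM, against 0.278 CPM in adult and 0.153 CPM in young comparison cells. Zbtb46, a transcription factor of classical dendritic cells, was found in 13 adult and 6 young cells at 43.7 and 27.9 CPM, against 0.300 and 0.322 CPM. Ccl22 and Cacnb3 were thus in most Ccr7 Fscn1 cells of both libraries, Flt3 in 55.9% of adult and 51.9% of young cells and Zbtb46 in fewer, and Flt3 and Zbtb46 were under 1 CPM in the comparison cells. Flt3 and Zbtb46 belong to a list of 8 general dendritic markers. Of the 8, 2 had a mean of at least 20 CPM in both libraries, with 1 at least 2-fold higher and none lower. Among all genes with such a mean, 9.64% were higher and 10.9% lower. All 8 summed to 264 CPM in adult and 198 CPM in young cells, against 114 and 82.4 CPM in adult and young comparison cells.

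Not every chosen cell carried the checked markers. In 2 adult and 3 young cells there was no UMI of Ccl22, Cacnb3 or Il4i1. All of these had Csf1r UMIs, and each was at the limit of choice, with 1 Fscn1 UMI. At least 1 UMI of these 3 markers was thus found in 32 of 34 adult and 24 of 27 young cells, and of Flt3 or Zbtb46 in 26 of 34 adult and 18 of 27 young cells. Cd274, which was given as a marker like Ccl22, did not set the Ccr7 Fscn1 cells apart. It stood at 535 CPM in adult and 487 CPM in young Ccr7 Fscn1 cells, against 353 and 457 CPM in adult and young comparison cells, and 88.3% of adult and 93.3% of young comparison cells had a UMI of it.

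**Figure D1:**
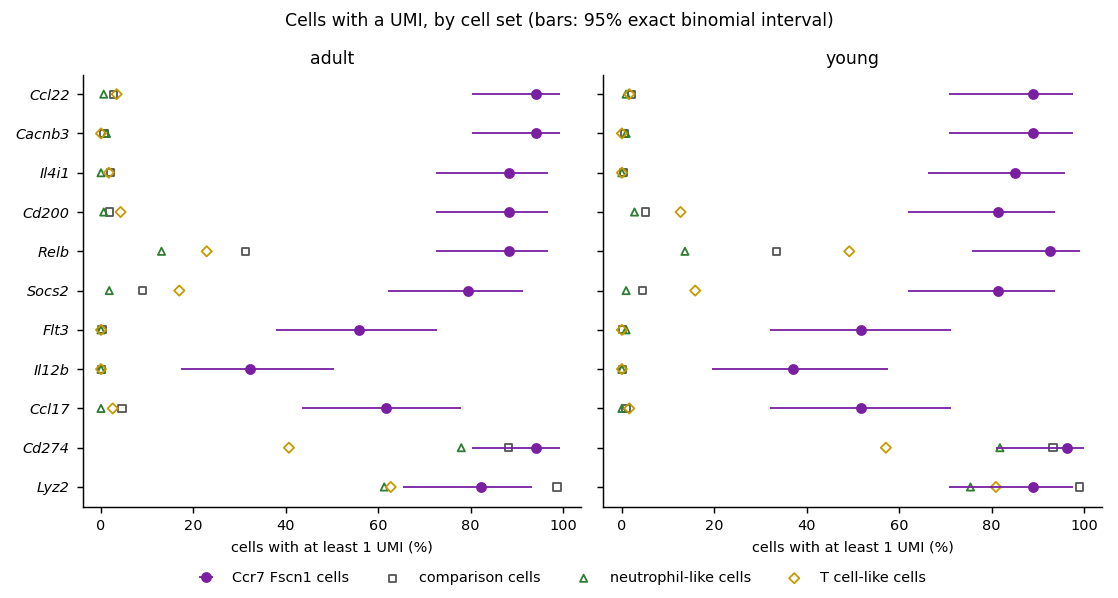
Percentage of cells with at least 1 UMI of 11 genes (x axis) in the adult (left) and young (right) library, for Ccr7 Fscn1 cells (filled circles with 95% exact binomial intervals), comparison cells, neutrophil-like cells (at least 10 UMIs each of S100a8 and S100a9) and T cell-like cells (at least 2 Cd3 UMIs). Ccl22 reached 94.1% in adult and 88.9% in young Ccr7 Fscn1 cells and 2.78% and 2.12% in adult and young comparison cells, while Cd274 was frequent in all 4 sets.

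Depth was then evened out. With every cell thinned to 3000 UMIs, Ccl22 was found in 90.9% of adult and 84.6% of young Ccr7 Fscn1 cells, against 0.996% and 0.835% of comparison cells. The markers with fewer UMIs were found less often, Cacnb3 in 69.7% of adult and 69.2% of young cells, Flt3 in 24.2% and 34.6%, and Zbtb46 in 9.09% and 3.85%. In comparison cells Cacnb3 was then found in 0.243% (adult) and 0.233% (young), and Flt3 and Zbtb46 in fewer still. Neutrophil-like cells, which should lack the gene, had a Ccl22 UMI in 0.595% (adult) and 0.909% (young) of cells at median depths of 2076 and 2382 UMIs before thinning.

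Genes of the dendritic subsets were uneven. Batf3 and Irf8, transcription factors of type 1 conventional dendritic cells, stood at 152 and 1988 CPM in adult and 208 and 2417 CPM in young cells, against 18.3 and 370 CPM in adult and 14.6 and 502 CPM in young comparison cells. Of 10 listed type 1 markers 3 were measured, of which 2 were higher (Batf3 and Irf8) and 1 was lower. The medians of the 3 were 2.41 in adult and 2.26 in young cells. Among all measured genes, 9.64% were higher and 10.9% lower in both libraries. The surface markers of that subset were nearly empty: Clec9a had a UMI in 4 adult and 3 young cells, Xcr1 in 1 adult and 0 young cells, and Cadm1 and Itgae in none. Tlr3, another listed type 1 marker, also had no UMI. Irf4, a transcription factor of type 2 cells, stood at 34.5 CPM in adult and 21.7 CPM in young cells, against 1.26 and 0.712 CPM in comparison cells. It was too low to be measured, and of the 3 of 8 type 2 markers that were, none was higher and Itgam was lower, with medians of -1.24 in adult and -0.68 in young cells. Cd209a and Clec4a4, surface markers of type 2 cells, had no UMI. The plasmacytoid markers Siglech, Ly6d, Klk1 and Cox6a2, and Aire, were also at 0. The list of 6 plasmacytoid markers summed to 82.7 CPM in adult and 40.3 CPM in young cells, against 47.6 and 55.9 CPM in adult and young comparison cells, and a single gene of it was measured, at a log2 ratio of 0.83 in adult and -0.42 in young cells.

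Markers of other cells were counted as whole lists. All 5 B cell markers, all 4 fibroblast and all 4 basophil and mast cell markers were at 0 in both libraries. Of 7 T cell markers, 5 were at 0 in adult cells, with Trbc2 and Thy1 in 1 adult cell each, and 7 at 0 in young cells. The 16 macrophage and monocyte markers summed to 4857 CPM in adult and 4351 CPM in young Ccr7 Fscn1 cells, against 17139 and 20167 CPM in adult and young comparison cells. Mertk alone of these was at 0 in adult cells, and none was at 0 in young cells. Csf1r itself, the gene that chose the comparison cells, had a UMI in 12 adult and 11 young Ccr7 Fscn1 cells. Those cells were deeper, with median UMIs of 15560 in adult and 15812 in young cells, against 12246 and 8425 in the cells without it. Among them, the adult cell with the most UMIs, 29424, held 392 UMIs of Lyz2 and 118 of C1qa beside 38 of Ccl22. Whether macrophage RNA in these cells came from a second cell, from free RNA or from the cells themselves was not tested.

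**Figure D2:**
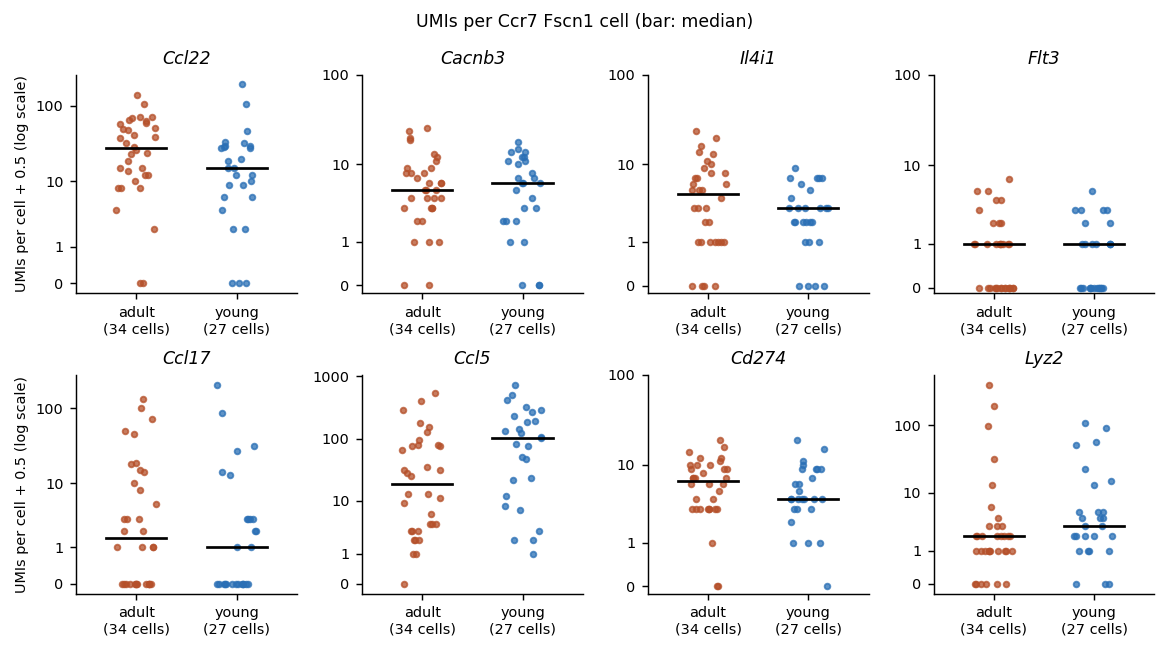
UMIs per cell (y axis, log scale after adding 0.5) of 8 genes in each of the 34 adult and 27 young Ccr7 Fscn1 cells, with the median as a bar. Ccl22 had a median of 27.5 UMIs in adult and 15 in young cells, Ccl5 one of 19 in adult and 102 in young cells, and Ccl17 was high in a few cells of either library.

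Against the comparison cells, the Ccr7 Fscn1 cells were at least 2-fold higher in both libraries for 408 of 4231 genes with a mean of at least 20 CPM (9.64%) and at least 2-fold lower for 461 (10.9%). The median log2 ratio over all these genes was -0.07 in the adult and -0.09 in the young library. The genes of the choice are not among these 4231. This contrast follows from how the cells were chosen and is a description. Of 26 listed markers of mature dendritic cells 22 were measured, without Ccr7 and Fscn1 but with the given markers Ccl22 and Cd274. Of the 22, 19 were higher and none lower, with medians of 3.05 in adult and 3.38 in young cells. The 15 genes with the highest ratios were Ccl22, Serpinb6b, Tbc1d4, Cacnb3, Ramp3, Gm13546, Il4i1, Cd200, Serpinb9, Il12b, Bcl2l14, Stat4, Rogdi, Spint2 and Sema7a.

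Ccl22 stood at 2817 CPM (95% Poisson interval 2661 to 2979) in adult and 2144 CPM (1987 to 2310) in young Ccr7 Fscn1 cells, against 7.60 and 4.05 CPM in adult and young comparison cells. The log2 ratios were 7.81 and 7.89. Serpinb6b, an intracellular protease inhibitor, stood at 1142 and 1063 CPM, against 1.76 and 3.46 CPM, and Serpinb9, a granzyme B inhibitor, at 549 and 691 CPM, against 8.80 and 17.1 CPM. Both belong to a family of near-identical copies, so their counts are uncertain. Tbc1d4, a regulator of Rab proteins in vesicle traffic, stood at 705 and 694 CPM, against 2.01 and 1.82 CPM. Each of these genes thus stood above 500 CPM in the Ccr7 Fscn1 cells and under 20 CPM in the comparison cells of both libraries.

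Ramp3, a partner of calcitonin family receptors, stood at 1344 CPM in adult and 1428 CPM in young Ccr7 Fscn1 cells, against 13.9 and 13.0 CPM in comparison cells. Stat4, the transcription factor downstream of the interleukin-12 receptor, stood at 168 and 229 CPM, against 1.26 and 1.39 CPM. Gm13546, an antisense RNA at chr2:58164001-58177063 on the plus strand (GRCm38), stood at 283 and 428 CPM, against 0.278 and 0.475 CPM. It overlaps Cytip on the other strand, and whether the counting used strand is not given in the sources used here, so reads of the pair may not be told apart. Il4i1 overlaps Nup62 on the same strand and Atf5 and Tbc1d17 on the other strand, so its reads may not be told apart from theirs.

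**Figure D3:**
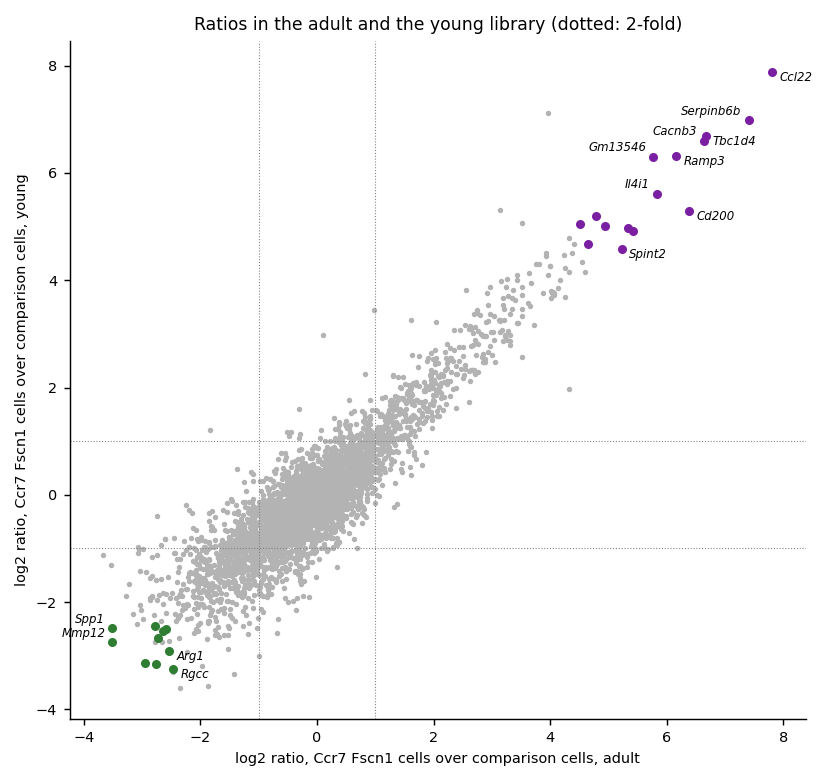
Log2 ratio of Ccr7 Fscn1 cells over comparison cells in the adult (x axis) and young (y axis) library for the 4231 measured genes, each a point, without the genes of the choice, with the 15 highest (purple) and 10 lowest (green) coloured and some named. The dotted lines mark 2-fold, and Ccl22 lies farthest to the upper right at 7.81 and 7.89.

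Chemokines divided. Of 10 measured, Ccl22, Ccl17 and Ccl5 were higher than in comparison cells in both libraries. Ccl2, Ccl24 and Cxcl2 were lower, beside 9.64% higher and 10.9% lower among all genes. Ccl17, the other CCR4 ligand, stood at 1170 CPM in adult and 1227 CPM in young Ccr7 Fscn1 cells, against 70.8 CPM in adult and 3.82 CPM in young comparison cells. It was uneven between cells: 21 of 34 adult and 14 of 27 young cells had a UMI, and 1 young cell held 52% of the young UMIs. Ccl5, a chemokine that attracts T cells, stood at 5547 CPM in adult and 12763 CPM in young cells, against 827 and 1210 CPM.

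Ligands that costimulate T cells were higher as a group. Of 8 measured, 6 were at least 2-fold higher in both libraries, against 9.64% of all genes, and none was lower. The medians were 2.01 in adult and 1.86 in young cells. Cd40, which receives help from CD4 T cells, stood at 377 and 329 CPM in adult and young Ccr7 Fscn1 cells, against 88.2 and 81.7 CPM. Cd83, a maturation marker that stabilises surface MHC class II, stood at 770 and 896 CPM, against 115 and 82.5 CPM. Cd70 and Tnfsf4, the ligands of CD27 and OX40, were found in 10 and 11 adult and in 12 and 10 young cells, and Cd70 stood at 103 and 124 CPM, against 0.107 and 0.0678 CPM. Cd86 missed the limit in the adult library, at 379 CPM against 203 CPM, a log2 ratio of 0.88, beside 549 against 238 CPM and 1.19 in the young library.

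Inhibitory and regulatory genes were mixed. Of 12 measured, 5 were higher (Pdcd1lg2, Cd200, Il4i1, Socs2 and Pvr) and 3 lower (Socs3, Havcr2 and Vsir), beside 9.64% and 10.9% of all genes. The medians were 0.59 in adult and 0.78 in young cells. Cd200, the ligand of an inhibitory receptor on myeloid cells, stood at 650 CPM in adult and 645 CPM in young cells, against 2.89 and 11.5 CPM. Il4i1, an amino acid oxidase that dampens T cells, stood at 455 and 263 CPM, against 3.13 and 0.475 CPM. Pdcd1lg2, which encodes PD-L2, stood at 216 and 242 CPM, against 79.4 and 48.8 CPM. Ido1 had no UMI in either library.

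Among 9 measured cytokines and receptors, Il12b, Il15ra and Il2ra were higher, against 9.64% of all genes. Il1b, Tnf and Tgfb1 were lower, against 10.9% of all genes. Il12b, the p40 subunit shared by interleukins 12 and 23, stood at 161 CPM in both adult and young cells, against 0.385 and 0.136 CPM, but came from 11 adult and 10 young cells. Its partner for interleukin 12, Il12a, had no UMI, and Il23a had UMIs in 2 adult cells and 1 young cell. Il2ra, a subunit of the interleukin-2 receptor, stood at 87.3 and 77.5 CPM, against 4.92 and 5.63 CPM.

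The NF-kappaB pathway drives dendritic cell maturation through REL family dimers. Of 17 measured genes of the pathway, 8 were higher, against 9.64% of all genes, and none was lower. The medians were 0.87 in adult and 0.75 in young cells. Relb, the subunit of the noncanonical dimer, stood at 345 CPM in adult and 347 CPM in young cells, against 37.6 and 42.7 CPM, and Nfkb2, which encodes its partner, at 154 and 174 CPM, against 31.6 and 32.3 CPM. Map3k14, the kinase that activates this branch, stood at 149 and 161 CPM, against 9.59 and 8.45 CPM, and Traf1, a signal adaptor, at 823 and 874 CPM, against 88.8 and 87.2 CPM. The others higher were Nfkb1, Rel, Nfkbib and Gadd45b, while the inhibitor Nfkbia differed by less than 2-fold, with 2778 and 2163 CPM against 2379 and 2646 CPM.

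The promoters of these genes were searched for the kappa B consensus on either strand within 250 bases before the start site (RefSeq, GRCm38.p6). Of 17 genes on the list 15 had a promoter in the table, and 8 of them (53.3%) held a match, against 2225 of 27025 genes overall (8.23%). The list was made of genes of the pathway, so this share describes the list and is no result of these cells. Of the 15 genes highest in Ccr7 Fscn1 cells, 2 held one (13.3%), Ramp3 and Spint2, as did 2 of the 7 matched among the 10 lowest genes (28.6%) and 0 of 16 matched mature dendritic markers. Of the 8 pathway genes that were higher, Nfkb1 and Relb had no promoter in the table, and of the other 6, Nfkb2 and Rel held a match. The inhibitors Nfkbia, Nfkbie, Tnfaip3 and Tnip1 matched and were not at least 2-fold higher in both libraries. A stretch of 60 bases is shown for the 2 subunit genes, with the matches in capitals, because they are the pathway genes that were both higher and matched:
Nfkb2 promoter, chr19:46304673-46304732, + strand: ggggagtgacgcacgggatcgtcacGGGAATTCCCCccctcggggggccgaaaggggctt
Rel promoter, chr11:23771027-23771086, - strand: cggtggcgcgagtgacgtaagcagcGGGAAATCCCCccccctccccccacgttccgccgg
A match is a description of the letters and does not show that a factor binds there.

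Genes of migration and the cytoskeleton were higher for 7 of 13 measured, against 9.64% of all genes, and lower for 1 (Itgb2). The medians were 1.19 in adult and 1.45 in young cells. Marcksl1, an actin-binding membrane protein, stood at 1119 CPM in adult and 998 CPM in young cells, against 177 and 224 CPM. Tmem123, a membrane receptor known from activated dendritic cells, stood at 1395 and 1524 CPM, against 85.2 and 84.6 CPM. Myo1g, a membrane myosin, stood at 492 and 437 CPM, against 62.4 and 51.6 CPM.

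Genes of antigen presentation differed little by their list medians. Of 9 measured MHC class II genes, H2-DMb2 and H2-Oa were higher and H2-DMb1 was lower, with medians of 0.13 in adult and 0.11 in young cells. H2-Aa stood at 4451 CPM in adult and 5317 CPM in young cells, against 3834 and 2665 CPM, and the invariant chain Cd74 at 9473 and 9442 CPM, against 11381 and 8746 CPM. Of 13 MHC class I genes none was higher and the chaperones Calr and Pdia3 were lower, with medians of -0.04 and -0.17, beside 9.64% higher and 10.9% lower among all genes. These shares are near those of all genes. Near-identical H2 copies make single H2 counts uncertain.

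Receptors of uptake and pattern recognition were low. Of 10 measured, 9 were lower in both libraries, against 10.9% of all genes, and Axl alone was not called. The medians were -2.32 in adult and -2.00 in young cells. Without the cells that had a Csf1r UMI the medians were -4.25 and -4.01. Cd14, the coreceptor of lipopolysaccharide, stood at 113 CPM in adult and 270 CPM in young cells, against 1039 and 1275 CPM. Clec4n, which encodes dectin-2, stood at 71.2 and 152 CPM, against 548 and 607 CPM. Lysosomal genes were lower for 5 of 10, phagosome genes for 3 of 8 (Cybb, Ncf4 and Rac2) and macrophage and monocyte markers for 13 of 14. The 10 genes with the lowest ratios were Ccl3, Chil3, Mmp12, Pdpn, Ccl4, Arg1, Fn1, Spp1, Rgcc and Slc31a1. Arg1, the arginase of alternatively activated macrophages, stood at 993 and 703 CPM, against 5772 and 5296 CPM, and 1 adult cell held 62% of the adult UMIs. Its log2 ratios were -2.53 in adult and -2.90 in young cells, and -6.15 and -5.87 without the cells that had a Csf1r UMI. Since the comparison cells were chosen by a macrophage receptor, this direction follows in part from the choice.

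**Figure D4:**
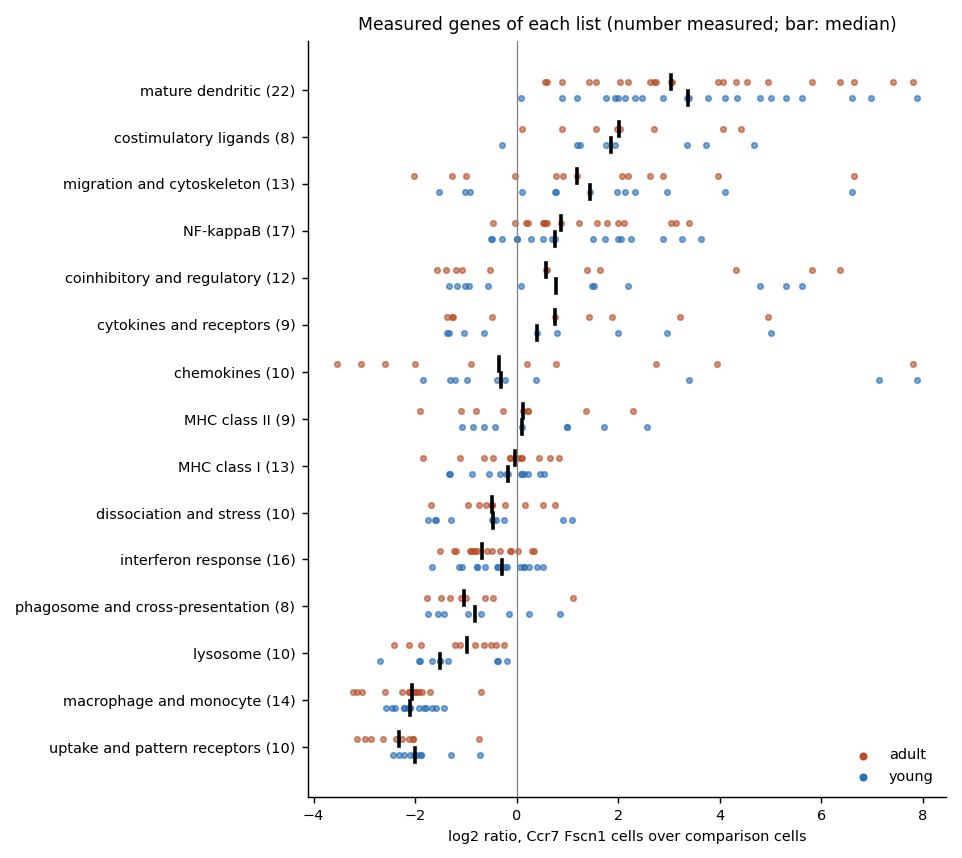
Log2 ratio of Ccr7 Fscn1 cells over comparison cells (x axis) for each measured gene of 15 lists, adult (upper row of each pair) and young (lower row), with the list median as a bar and the number measured in brackets. The median of the mature dendritic markers is 3.05 (adult) and 3.38 (young) and that of the uptake receptors -2.32 and -2.00.

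Between ages, 122 of 4389 genes with a mean of at least 20 CPM (2.78%) were at least 2-fold higher in adult than in young Ccr7 Fscn1 cells and 193 (4.4%) at least 2-fold lower. In the comparison cells, with far more UMIs, 17 of 4439 genes (0.383%) were higher and 15 (0.338%) lower by the same limit. The median log2 ratio over all genes was -0.02 in Ccr7 Fscn1 cells and -0.03 in comparison cells. Several lists held no gene past 2-fold between ages. None of 17 NF-kappaB genes, of 13 migration genes, of 8 costimulatory ligands or of 13 MHC class I genes passed 2-fold in either direction, and their medians were -0.10, -0.07, 0.18 and -0.15. Of 10 MHC class II genes Ciita was higher and H2-Ob lower, and the median was 0.02 in Ccr7 Fscn1 cells, against 0.51 in comparison cells.

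Genes induced by interferon were lower in adult cells. Of 15 measured, 9 were at least 2-fold lower, against 4.4% of all genes, and none was higher. The median log2 ratio was -1.08 in Ccr7 Fscn1 cells and -0.59 in comparison cells. Isg15, a ubiquitin-like protein, had a median of 5.5 UMIs per adult cell (range 0 to 58) and 15 per young cell (0 to 79). Its level was 830 CPM in adult and 1850 CPM in young cells, a 0.448-fold ratio (0.392 to 0.512), beside 908 and 1281 CPM in comparison cells. The cells overlapped in both directions.

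Irf7, the master transcription factor of type I interferon responses, stood at 209 CPM in adult and 524 CPM in young cells, with a UMI in 21 of 34 and 21 of 27 cells. Ifi27l2a, an interferon-induced membrane protein, stood at 928 and 2023 CPM, with a UMI in 24 of 34 and 26 of 27 cells. The others lower in adult cells were Ifit2, Ifit3, Rsad2, Oasl1, Oasl2 and Usp18, antiviral effectors and a deubiquitinase of ISG15. Some rest on few cells: Ifit2 had a UMI in 5 adult and 7 young cells and Ifit3 in 3 adult and 8 young cells. Rsad2 was just past 2-fold, at a log2 ratio of -1.01, and stood at -0.22 with at least 2 UMIs of both Ccr7 and Fscn1. Zbp1, a sensor of nucleic acids, stood close to equal, with a log2 ratio of -0.03.

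The median was below 0 in each of the other cell sets tried. Without the cells that had a Csf1r UMI, the median over 14 measured genes was -1.34 with 9 at least 2-fold lower, and with at least 2 UMIs of both Ccr7 and Fscn1 it was -0.76 with 7 of 15. Of 14 macrophage and monocyte markers, 4 were lower in adult cells (Cd14, Ly6c2 and Ccr2 among them) and 1 was higher (Apoe), with a median of -0.49. Among all genes 4.4% were lower and 2.78% higher. A single adult cell held 88% of the adult UMIs of Apoe. The part of these markers in the interferon result was not tested. Counts of Ifit3 are uncertain because of its near-identical copy.

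Interferon-induced promoters often hold the interferon response element, searched here as GAAANNGAAA on either strand within 250 bases before the start. Of 16 listed genes 11 had a promoter in the table and 6 of them (54.5%) held a match, against 936 of 27025 genes overall (3.46%). The list was made of interferon-induced genes, so this share describes the list and is no result of these cells. Of the genes lower in adult cells, Isg15, Ifit3 and Rsad2 held a match, and Irf7, Ifit2, Oasl1 and Oasl2 were searched and held none. Usp18 and Ifi27l2a had no promoter to search. The stretches of Isg15, Ifit3 and Rsad2 are shown, with matches in capitals:
Isg15 promoter, chr4:156200862-156200921, - strand: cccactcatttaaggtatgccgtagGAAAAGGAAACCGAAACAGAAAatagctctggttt
Ifit3 promoter, chr19:34583348-34583407, + strand: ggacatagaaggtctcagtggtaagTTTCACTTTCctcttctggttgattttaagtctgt
Rsad2 promoter, chr12:26456538-26456597, - strand: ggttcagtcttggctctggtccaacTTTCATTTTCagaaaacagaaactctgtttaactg
The Isg15 stretch held 3 overlapping matches, and the capitals of Ifit3 and Rsad2 are the element read on the other strand. Stat2, Ifit1 and Bst2 also held matches and were within 2-fold between ages. Whether the element has a part in the difference between ages was not tested.

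**Figure D5:**
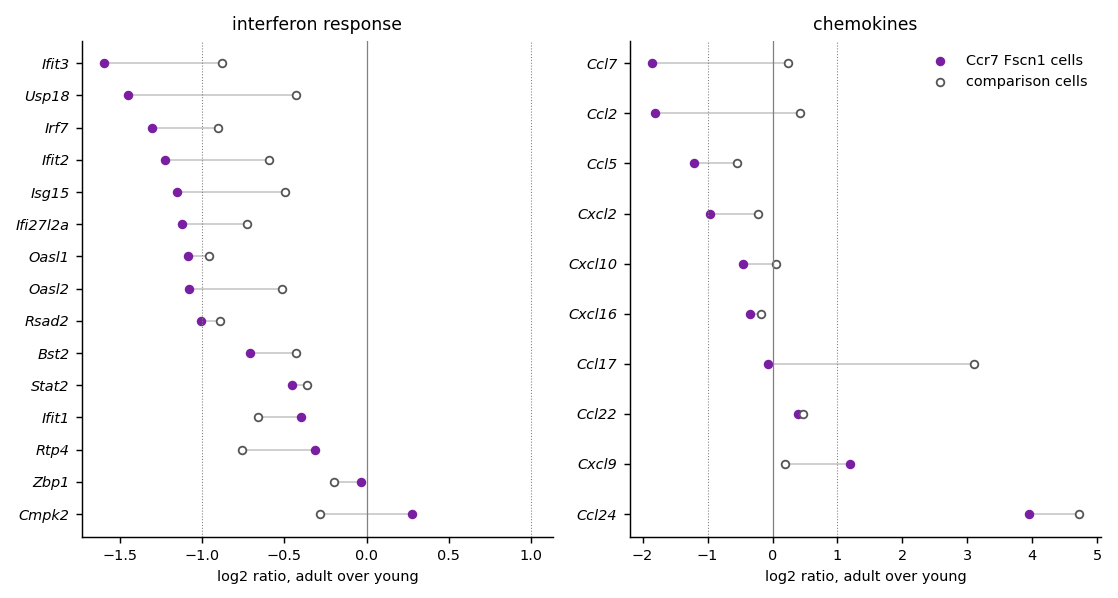
Log2 ratio of adult over young (x axis) for 15 of the 16 interferon response genes (left, 1 measured gene is not drawn) and 10 chemokines (right) in Ccr7 Fscn1 cells (filled) and comparison cells (open), with 2-fold dotted. The measured interferon genes drawn lie below 0 in Ccr7 Fscn1 cells, and Cmpk2, which was drawn but too low to be counted as measured, lies at 0.28.

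Chemokines differed one by one. Ccl5 had a median of 19 UMIs per adult cell (range 0 to 541) and 102 per young cell (1 to 732), in 33 of 34 and 27 of 27 cells. Its level was 5547 CPM in adult and 12763 CPM in young cells, a 0.435-fold ratio (0.413 to 0.457) and a log2 ratio of -1.20, beside -0.55 in comparison cells. Without cells that had a Csf1r UMI the log2 ratio was -0.75, short of 2-fold. Cxcl9, an interferon-gamma-induced ligand of CXCR3 on T cells, went the other way, at 650 CPM in adult and 282 CPM in young cells, a log2 ratio of 1.19, and 0.87 without those cells. Ccl22 had a log2 ratio of 0.39 and Il4i1 one of 0.78.

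Between ages, Ccl17 was close to equal over all Ccr7 Fscn1 cells, unlike in the comparison cells, but not in every cell set tried. It stood at a log2 ratio of -0.07 in Ccr7 Fscn1 cells, beside 3.10 in comparison cells, where the levels were 70.8 CPM (adult) and 3.82 CPM (young). Mgl2, a lectin induced by interleukin 4, stood at 59.7 CPM in adult and 52.7 CPM in young Ccr7 Fscn1 cells. In comparison cells Mgl2 stood at 55.0 and 2.32 CPM. It had a UMI in only 12 of 34 adult and 5 of 27 young Ccr7 Fscn1 cells. Its log2 ratio there was 0.17, and 0.71 without the cells that had a Csf1r UMI. The Ccl17 ratio rests on few cells. Without the cells that had a Csf1r UMI, Ccl17 stood at 1325 CPM in adult and 316 CPM in young cells, a log2 ratio of 2.05.

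The 8 genes with the highest ratios of adult over young were Ccl24, Serpinb1a, Cxcl3, Apoe, Ly75, Trappc2l, Mrpl23 and Wfdc17. In several of them a single adult cell held most of the adult UMIs: 66% for Ccl24, 55% for Serpinb1a, 86% for Cxcl3 and 88% for Apoe. Ly75 was spread over cells. It encodes DEC-205, an endocytic receptor of dendritic cells, and had UMIs in 22 of 34 adult and 8 of 27 young cells, with 15% of the adult UMIs in 1 cell. Its level was 122 CPM in adult and 34.1 CPM in young cells, from 53 and 11 UMIs, a 3.57-fold ratio (1.84 to 7.59), beside 0.706 and 0.526 CPM in comparison cells. Its log2 ratio of 1.70 lay between 1.33 and 2.35 under all 9 alternatives that gave a value. Ly75 overlaps an antisense gene, Gm13571. Trappc2l, of the vesicle tethering TRAPP complex, stood at 122 and 34.1 CPM and Mrpl23, a mitochondrial ribosomal protein, at 80.4 and 24.8 CPM.

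The 8 lowest were Ccl12, Thbs1, Gde1, Hmox1, Ccl7, Selenom, Mt2 and Il1a. All but Mt2 were higher in the comparison cells than in the Ccr7 Fscn1 cells of both libraries. Hmox1, the haem-degrading enzyme, stood at 27.6 CPM in adult and 115 CPM in young cells, beside 274 and 627 CPM in comparison cells. A single cell held 66% of the young UMIs of Ccl12, 60% of Ccl7 and 57% of Mt2. Ccl2, Ccl7 and Ccl12, chemokines that recruit monocytes, are near copies of each other, and Ccl2 stood at 117 CPM in adult and 421 CPM in young cells, a log2 ratio of -1.80, which was -0.57 without the cells that had a Csf1r UMI.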

How the data were processed

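UMI counts per gene and cell were used as deposited by the authors, raw and not normalised, in sparse matrices of 31054 features. Reads were processed with Cell Ranger 3.0.2 and the mm10 build, per the submitters' processing notes. The sources used here give no gene annotation, cell filter or strand setting. Each library was assigned to its age by its sample title.

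Counts were summed over the cells of each set and library and scaled to CPM with numpy 2.4.6, scipy 1.17.1 and pandas 2.3.3 in Python 3.11.15. Genes with a mean of at least 20 CPM over the sets compared were measured, and at least 2-fold on log2(CPM + 5) was counted, in both libraries where Ccr7 Fscn1 cells were set against comparison cells. Named genes needed a mean of at least 50 CPM: the 15 highest and 10 lowest against comparison cells, by the smaller ratio of the 2 libraries, and the 8 highest and 8 lowest between ages, with UMIs in at least 5 cells of the higher library. Mitochondrial, ribosomal protein, haemoglobin, immunoglobulin and T cell receptor genes were left out of the naming and the genes of the choice out of every count, and list genes are described by role. Poisson, binomial (Clopper-Pearson) and conditional ratio intervals at 95% cover counting error only. The script was tested on simulated data. Thinning used seed 1.

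Positions came from GENCODE M21 on the same build, in which 99.9% of feature identifiers were found, and promoters from RefSeq (GRCm38.p6). The cells, lists and tests were chosen with earlier results of these data known. A few listed genes are not analysed here. Alternatives changed the UMIs needed, Csf1r, mitochondrial and mCherry limits, the deepest cells, cells with lymphoid UMIs, the comparison cells, cell weights, depth, pseudocount and the limit on low levels. A limit of 200 CPM was added after seeing the data.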

Additional observations from a re-analysis of the deposited data

Results flagged for a closer look

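Cells that met every other condition of the choice but held 5 or more mCherry UMIs were not used in the comparisons. There were 10 of them in the adult library and 10 in the young library. Their median depth was 57074 UMIs in adult and 71990 in young cells, against 13504 and 12444 in the Ccr7 Fscn1 cells. They held Ccl22 at 155 CPM in the adult and 13.0 CPM in the young library, with a Ccl22 UMI in 4 of 10 adult and 2 of 10 young cells.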

How the results depend on the processing

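The share of Ccr7 Fscn1 cells was 1.5 to 1.69 times as high in the adult library under all 7 alternatives. The count of genes higher than in comparison cells was 71 of 648 measured at 200 CPM, beside 408 of 4231 in the main setting. The count lower was 107 of 648 at 200 CPM and 708 of 4086 without cells with a Csf1r UMI, beside 461 of 4231. The 71 and 107 were all among the main counts. Between ages, 122 of 4389 genes were higher in adult cells in the main setting and 193 lower. The counts higher were 202 of 4280 with at least 2 UMIs of both genes, 278 of 4155 without Csf1r UMIs and 267 of 6085 at 10 CPM. They were 4 of 661 at 200 CPM, 205 of 4377 with equal weight per cell and 505 of 4358 after thinning. The counts lower were 375 of 4155 without Csf1r UMIs, 374 of 4348 with 0 mCherry UMIs and 325 of 4320 without the deepest 10% of cells. They were 364 of 6085 at 10 CPM, 11 of 661 at 200 CPM, 314 of 4377 with equal weight and 589 of 4358 after thinning. The counts between ages thus rest on low levels and few cells. Signs turned for Cxcl3 (-1.06 with at least 2 UMIs), for Apoe (-0.76 with 0 mCherry UMIs and -0.77 without the deepest cells) and for Ccl12 (0.30), Mt2 (0.26) and Il1a (0.22) without Csf1r UMIs. The cause was not tested. Of the named genes' ratios over comparison cells, 391 moved by less than counting error and 109 by more, 30 of them with 1 CPM added in place of 5 and 28 without Csf1r UMIs, and none changed sign. The interferon median stayed between -1.58 and -0.76 under 11 alternatives. Depth limits the genes under about 50 CPM, which rest on few UMIs. No paired analysis was possible because each age is 1 library and the labels carry no replicate numbers.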

Other observations

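Genes of cell division were mixed. The 10 listed summed to 903 CPM in adult and 806 CPM in young Ccr7 Fscn1 cells, against 727 and 644 CPM in adult and young comparison cells, most of it from Tubb5, a tubulin, at 717 and 521 CPM. Hmgb2, a chromatin protein, stood at 138 and 164 CPM, against 184 and 183 CPM. Of 3 measured, none was 2-fold higher or lower in both libraries. Top2a and Ccnb1 had no UMI in either library, and Mki67 had a UMI in 4 adult cells and 1 young cell. Pcna, the clamp of DNA replication, was found in 7 adult and 10 young cells, at 16.1 CPM in adult and 68.2 CPM in young cells. The adult and young comparison cells held it at 49.6 and 47.5 CPM. Its log2 ratio of adult over young was -1.80, but -0.26 without the cells that had a Csf1r UMI, at 21.2 and 26.4 CPM. Of 10 genes of dissociation and stress, 1 was lower than in comparison cells in both libraries (Atf3) and none was higher, and none of 9 passed 2-fold between ages, counts near the 9.64% higher and 10.9% lower of all genes against comparison cells and the 2.78% and 4.4% between ages.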
